A study of Homo sapiens with 3 samples.

Results

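Expression of the LIF and IL6 cytokine family was followed over the induction of neurons from human BJ fibroblasts, in 9 listed genes of the 32732 genes present in every feature table. These are the ligands LIF, IL6 and IL11, the receptor chains LIFR, IL6R, IL6ST and OSMR, the transcription factor STAT3 and its feedback inhibitor SOCS3. The list was drawn up after values of these libraries had been seen, so the levels by day are a description. All 9 were found, and all 9 reached 10 CPM (CPM being UMI counts scaled to the library's total on the shared genes) in at least 1 library.

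The cytokines of this family signal through a shared receptor chain, IL6ST (gp130). LIF brings LIFR together with IL6ST, while IL6 and IL11 first bind a ligand-specific chain, IL6R or IL11RA, which then engages IL6ST. The receptors activate JAK kinases, the kinases phosphorylate STAT3, and STAT3 switches on SOCS3, whose product binds IL6ST and closes the loop. Fibroblasts are a known source of IL6, IL11 and LIF under inflammatory stimulation, and in the developing nervous system LIF and its relative CNTF are known for promoting astrocyte formation and neuron survival.

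The study profiled single cells at days 0, 3 and 5 of a chemical conversion, with 1 library per day. The day 0 library is labelled as BJ cells, an established human foreskin fibroblast line, and those of days 3 and 5 as FiN cells, a label for induced neurons, and all 3 carry the genotype label WT and the treatment label reprogramming. Per the labels, BJ cells grown in serum were changed to an induction medium with 10 µM forskolin, which activates adenylyl cyclase and so raises cyclic AMP, then on day 2 to a maturation medium with the same dose, and forskolin was withdrawn on day 5. The labels do not say whether the day 0 cells had met forskolin or whether the day 5 cells were taken before its removal, and they describe nuclei for days 0 and 3 and about 10000 dissociated cells for day 5.

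After filtering, 16773, 11454 and 9219 cells were kept, holding 246546451, 18743865 and 51708522 UMIs at days 0, 3 and 5, with a median of 14039, 1324 and 4374 UMIs per cell. Mitochondrial UMIs made up 6.45%, 0.744% and 4.94% of the total, and MALAT1, a nuclear RNA, 3.14%, 21.6% and 7.24%, so preparation and day cannot be told apart. Of the 14 fibroblast markers checked, 14 were at 10 CPM or more at days 0 and 3 and 4 at day 5, while 14 of 14 neuron markers reached that level at day 5 and 2 at day 3, where DCX, STMN2, ELAVL4 and NEFL were at 0. The day 3 library thus had fibroblast and not neuron markers, against its cell type label. Macrophage markers, the other cells known for IL6, summed to 35.3, 10.3 and 3.75 CPM over 9 genes, of which 33.9 at day 0 was CD68 alone and PTPRC was at 0.0081 CPM. Between 27 and 63 cell barcodes were shared by any pair of libraries, at most 0.55% of the smaller one. In 2 clusters of the day 0 library, with 15.6% and 28.0% of its cells, MALAT1 was at 0.10% and 0.26% of UMIs, against 2.77% or more in the other 5.

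Calls of higher or lower required a CPM ratio of 2 or more, 10 CPM or more in the higher library and exact Poisson 95% intervals that were apart. With 1 library per day no test was possible: each comparison sets 1 library against another, and the intervals hold counting error alone. In summed counts, fewer cells of a type and less RNA per cell cannot be told apart.

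LIF, the ligand that gives the family its name here, had its highest level at day 3. It lies on the minus strand of chromosome 22 (chr22:30240447-30246851, GRCh38). LIF was at 82.2 CPM at day 0 (95% interval 81.0 to 83.3, 20254 UMIs), 1211 CPM at day 3 (1195 to 1227, 22662 UMIs) and 0.177 CPM at day 5 (0.0808 to 0.336, 9 UMIs). Day 3 was thus 14.7-fold above day 0 (14.46 to 15.02), and day 5 was 6853-fold below day 3 (3609 to 14989) and 465-fold below day 0. The day 3 library stood alone as high, and day 5 was close to the limit of detection, 3 UMIs or 0.0589 CPM. A gene on the opposite strand within LIF, AC004264.1, was at 0.195, 40.1 and 0.039 CPM in the same order, and since the labels do not say whether counting used strand, reads of the 2 genes cannot be told apart.

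IL6, the founding member and an acute phase cytokine, lies on the plus strand at chr7:22725884-22732002. It was at 48.3 CPM at day 0 (47.5 to 49.2, 11913 UMIs), 114 CPM at day 3 (109 to 119, 2134 UMIs) and had no UMI at day 5, where the exact interval reaches 0.0724 CPM. Day 3 was 2.36-fold above day 0, and day 5 was at least 1936-fold below day 3 and at least 820-fold below day 0 when the day 5 library is set at 3 UMIs, a level under the upper end of that interval. STEAP1B, which overlaps IL6 on the opposite strand, went the other way, at 0.799, 0.695 and 14.1 CPM.

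IL11, a cytokine known in fibroblasts for its induction by TGF-beta, lies on the minus strand at chr19:55364389-55370463 and had its highest level before induction. IL11 was at 263 CPM at day 0 (261 to 265), 145 CPM at day 3 (140 to 151) and 2.16 CPM at day 5 (1.78 to 2.60, 110 UMIs). The day 3 level was 1.81-fold below day 0 and was not called, and day 5 was 67.1-fold below day 3 and 122-fold below day 0. The ligands therefore shared a low level at day 5 and differed between days 0 and 3, where LIF and IL6 were higher at day 3 and IL11 was not.

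The promoters of IL6 and IL11 are shown because both ligands were high in the fibroblast libraries and nearly absent at day 5, yet they carry different short motifs. They come from RefSeq (GRCh38.p14), printed 5′ to 3′ on the gene's strand up to the nearest annotated exon, with motif matches in capitals. IL6 covers chr7:22726950-22727146 on the plus strand and IL11 covers chr19:55370464-55370713 on the minus strand.
IL6: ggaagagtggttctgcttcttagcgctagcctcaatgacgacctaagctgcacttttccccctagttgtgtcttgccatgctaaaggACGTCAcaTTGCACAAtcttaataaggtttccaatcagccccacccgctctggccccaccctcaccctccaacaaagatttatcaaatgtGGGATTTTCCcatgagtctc
IL11: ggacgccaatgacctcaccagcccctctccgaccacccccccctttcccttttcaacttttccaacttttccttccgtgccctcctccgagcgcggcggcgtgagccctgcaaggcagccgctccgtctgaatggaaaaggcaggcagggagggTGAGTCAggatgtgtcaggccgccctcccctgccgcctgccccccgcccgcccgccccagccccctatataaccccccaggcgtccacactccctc
In IL6 the capitals mark, in order, the 6-base core of the cyclic AMP response element (TGACGT, read here on the opposite strand), a C/EBP match (TTGCNNAA) and an NF-kB match, which end 158, 148 and 64 bases before the RefSeq start. In IL11 they mark an AP-1 match (TGANTCA) that ends 90 bases before the start. Both strands were searched for these and for the full cyclic AMP response element (TGACGTCA), which contains the core, and a STAT motif (TTCNNNGAA), and neither of the latter was present in these stretches. RefSeq windows were found for 8 of the 9 members, 11 windows in all, and LIF was not among them. Over 35116 RefSeq promoter windows of the same length, 7.10% held the core, 1.65% the full element, 6.57% an AP-1 match, 6.57% a STAT match, 9.05% a C/EBP match and 9.96% an NF-kB match. STAT matches were present in 2 of the LIFR windows, 1 of which also held a C/EBP match, an NF-kB match in IL6ST and a C/EBP match in OSMR, and none of the motifs was found in the windows of IL6R, SOCS3 or STAT3. A match is a run of letters and not a bound site.

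**Figure D1:**
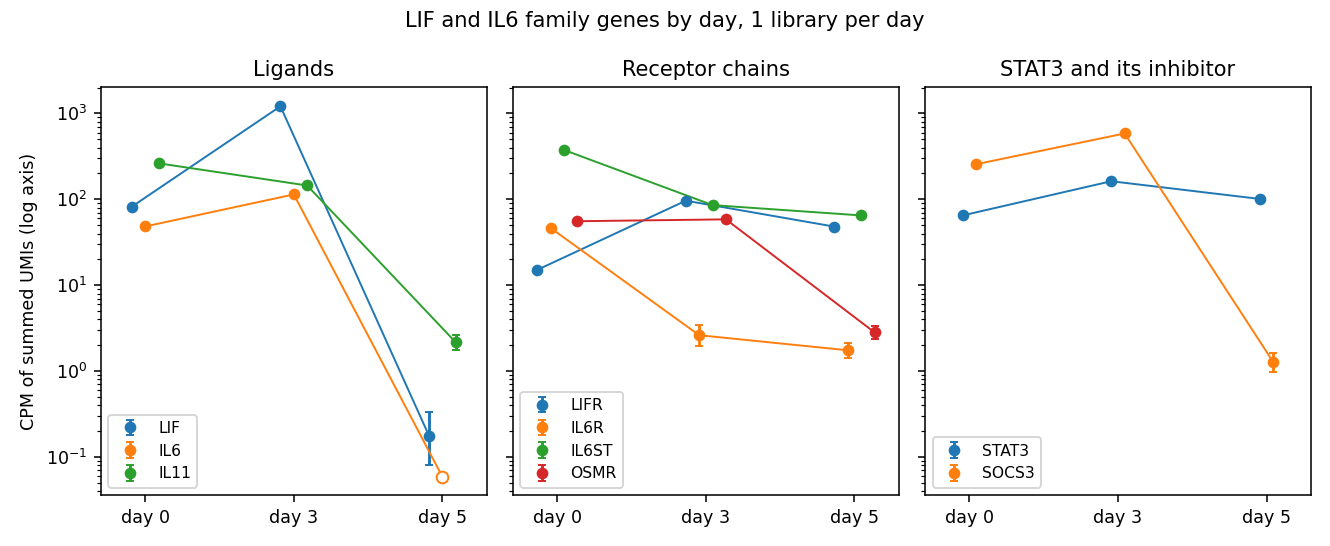
CPM of summed UMIs (log axis) for the 9 members at days 0, 3 and 5, with exact Poisson 95% intervals as bars, 1 library per day, and the level of 3 UMIs as an open circle where no UMI was counted (IL6 at day 5). LIF peaks at 1211 CPM at day 3, and the ligands, OSMR and SOCS3 sit below 3 CPM at day 5, while LIFR, IL6ST and STAT3 stay between 48.1 and 101 CPM.

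The receptor chains did not move together. LIFR, the chain that binds LIF, lies on the minus strand at chr5:38474963-38608354. LIFR was at 15.1 CPM at day 0 (14.6 to 15.6), 96.5 CPM at day 3 (92.1 to 101) and 48.1 CPM at day 5 (46.2 to 50.1). Its level was 6.39-fold above day 0 at day 3 and 3.19-fold above day 0 at day 5, and it was the one member called higher at day 5 than at day 0, a call lost with TMM. The ratio of day 5 to day 3 was 2.01-fold lower, just past the threshold of 2, and the call was lost under 6 of the 10 alternatives that changed the values. The antisense gene LIFR-AS1, with 51569 bases of overlap, was at 0.621, 5.40 and 3.22 CPM.

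IL6R, the chain that binds IL6, lies on the plus strand at chr1:154405193-154469450 and was a gene of the day 0 library. IL6R was at 46.4 CPM at day 0 (45.6 to 47.3, 11438 UMIs), 2.62 CPM at day 3 (1.94 to 3.46, 49 UMIs) and 1.75 CPM at day 5 (1.40 to 2.15, 89 UMIs). Day 3 was 17.7-fold below day 0 (13.4 to 24.0) and day 5 26.6-fold below, and with both later levels under 10 CPM the step from day 3 to day 5 was not compared. Thus the IL6 ligand was higher at day 3 by library totals while its own receptor chain was lower.

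IL6ST, the shared chain, lies on the minus strand at chr5:55935095-55994993. IL6ST was at 376 CPM at day 0 (373 to 378), 85.7 CPM at day 3 (81.5 to 89.97) and 65.0 CPM at day 5 (62.8 to 67.2). It was 4.39-fold lower at day 3 than at day 0 and 5.79-fold lower at day 5 than at day 0, and the 1.32-fold step from day 3 to day 5 was not called. The shared chain was thus still present in the day 5 library.

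OSMR, the chain that pairs with IL6ST to bind oncostatin M, lies on the plus strand at chr5:38845858-38945596 and was called neither higher nor lower at day 3 than at day 0. OSMR was at 55.6 CPM at day 0 (54.7 to 56.5), 58.5 CPM at day 3 (55.1 to 62.0) and 2.83 CPM at day 5 (2.38 to 3.33, 144 UMIs). The day 3 to day 0 ratio was 1.05-fold (0.988 to 1.12), its sign changed in 4 of 11 alternatives, and OSMR was lower at day 3 (log2 ratio -1.13) under TMM scaling. Day 5 was 20.7-fold below day 3 and 19.7-fold below day 0. RICTOR overlaps OSMR by 7678 bases on the opposite strand and was at 36.2, 127 and 111 CPM. Its own ligand, OSM, had 39, 4 and 0 UMIs.

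STAT3, the transcription factor that carries the signal, lies on the minus strand at chr17:42313324-42388568. STAT3 was at 64.9 CPM at day 0 (63.9 to 66.0), 162 CPM at day 3 (157 to 168) and 101 CPM at day 5 (98.3 to 104). Day 3 was 2.50-fold above day 0, and neither the 1.61-fold step down to day 5 nor the 1.56-fold difference of day 5 from day 0 was called. All 3 libraries held STAT3 RNA at a level within 2.50-fold of each other.

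SOCS3, the inhibitor that STAT3 induces, lies on the same chromosome and strand at chr17:78356778-78360077. SOCS3 was at 256 CPM at day 0 (254 to 258), 585 CPM at day 3 (574 to 596) and 1.28 CPM at day 5 (0.985 to 1.63, 65 UMIs). Day 3 was 2.28-fold above day 0, and day 5 was 458-fold below day 3 (359 to 594) and 201-fold below day 0. SOCS3 RNA was therefore nearly gone in a library in which STAT3, LIFR and IL6ST were all at 48.1 CPM or more.

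By these calls, 5 of the 9 members were higher at day 3 than at day 0 (LIF, IL6, LIFR, SOCS3 and STAT3), beside 37.6% of the 10431 genes compared, and 2 were lower (IL6R and IL6ST), beside 19.1%. The calls at day 3 against day 0 depended on the scaling. The median gene with at least 10 UMIs was itself 0.81 higher at day 3 on the log2 scale, and the share of higher genes among all calls was 66.3% with library totals, 23.8% with TMM and 35.7% with the median of ratios. Relative to that median, the log2 ratio was 3.07 for LIF, 1.87 for LIFR, 0.52 for STAT3, 0.43 for IL6, 0.38 for SOCS3, -0.73 for OSMR, -1.66 for IL11, -2.94 for IL6ST and -4.95 for IL6R. LIF and LIFR were called higher, and IL6R and IL6ST lower, under every scaling run. IL6, SOCS3 and STAT3 were not called with either TMM or the median of ratios; with TMM the SOCS3 log2 ratio was -0.01. IL11 was called lower with both.

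**Figure D2:**
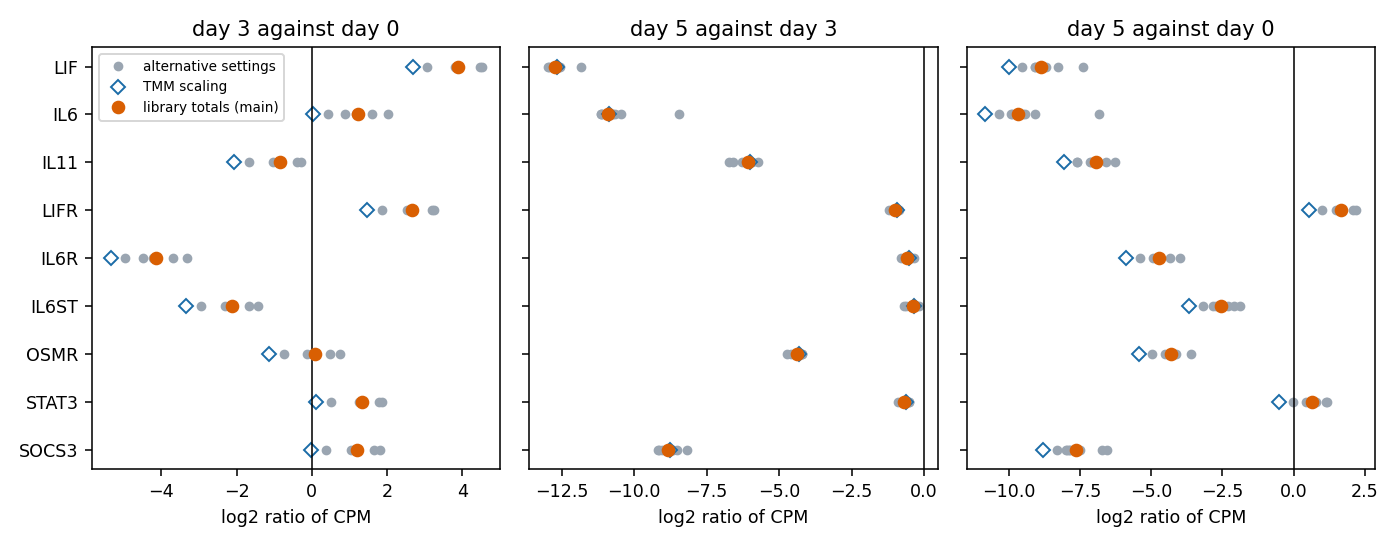
Log2 ratio of CPM for each member in the 3 comparisons, with library totals (orange), TMM scaling (open diamonds) and the other alternative settings (grey). At day 3 against day 0 the values for IL6, STAT3 and SOCS3 reach from about 0 with TMM to above 1, while LIF stays at 2.68 or more and IL6R at -3.32 or less.

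Between day 3 and day 5, 8 members reached 10 CPM in either library. None was higher, beside 36.5% of the 12623 genes compared, and 6 were lower (LIF, IL6, IL11, LIFR, OSMR and SOCS3), beside 28.7%. Between day 0 and day 5, 1 of 9 was higher (LIFR), beside 49.1% of 12084 genes, and 7 were lower, beside 26.0%. Each pair of these comparisons shares a library, so their counts are not independent. The LIFR log2 ratio to day 0 was 0.54 with TMM, and the 7 lower members kept their calls under every scaling.

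Ratios against day 5 also moved with intron length over all genes. In the day 5 to day 3 comparison, the median log2 ratio was -1.75 for genes with under 5000 bases of intron, 0.87 for 50000 to 100000 bases and 1.65 for 100000 to 200000 bases. LIF, IL6, IL11 and SOCS3 have 2436, 4050, 3404 and 566 bases of intron, and their log2 ratios of -12.74, -10.92, -6.07 and -8.84 were each below the 10th percentile of that length class, -4.42. OSMR, with 92565 bases, was at -4.37 where the 10th percentile of its class was -1.31, and LIFR, with 121528 bases, was at -1.004 where it was -0.77. IL6ST (50607 bases) and STAT3 (66433 bases), at -0.40 and -0.69, lay between the 10th percentile and the median of their class. The part of preparation in these ratios was not tested.

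Counting cells instead of molecules, LIF was found in most cells at day 3 and in few at the other days. With each cell thinned to 1000 UMIs, a LIF UMI was found in 4.86% of 14382 day 0 cells (exact binomial 95% interval 4.51 to 5.22), 64.4% of 8441 day 3 cells (63.4 to 65.4) and 0.033% of 9219 day 5 cells, which were 3 cells. Without thinning the shares were 31.7%, 72.8% and 0.098%. Cells under 1000 UMIs, 2391 at day 0 and 3013 at day 3, were left out. SOCS3 was in 16.1%, 44.0% and 0.206% of thinned cells (55.3%, 56.2% and 0.683% unthinned). Days 0 and 3 thus differed in the thinned shares and were close in the unthinned ones. Thinning keeps the scaling by total UMIs, and the SOCS3 call between these days was lost with TMM and the median of ratios.

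IL6 was detected in 3.45% and 10.4% of thinned cells at days 0 and 3 and in 0 of 9219 at day 5, which allows up to 0.0325% of cells with a UMI at this depth and sets no limit on cells expressing the gene (26.4%, 15.5% and 0% unthinned). IL11 was in 15.98%, 13.0% and 0.152% of thinned cells (53.5%, 19.1% and 1.13% unthinned). At equal depth IL6 was thus in more cells at day 3 than at day 0, and IL11 in fewer.

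Among the receptor chains, LIFR was found in 1.06%, 9.22% and 4.44% of thinned cells (17.3%, 13.7% and 19.9% unthinned). IL6R was in 3.39%, 0.272% and 0.174% (34.8%, 0.428% and 0.879%). In thinned cells LIFR detection was thus highest at day 3, where IL6R was found in 23 of 8441 cells. Without thinning, LIFR detection was lowest at day 3. IL6ST was in 21.5%, 7.78% and 6.03% (58.5%, 12.4% and 26.7%) and OSMR in 4.01%, 5.51% and 0.217% (38.6%, 8.75% and 1.49%), so that the shared chain was in fewer cells at both later days and OSMR dropped out between days 3 and 5. STAT3 was in 4.47%, 15.3% and 9.47% of thinned cells (42.6%, 21.4% and 34.9% unthinned). For each of the 9 members, the thinned shares put the days in the same order as the CPM. Thinning keeps the scaling by total UMIs, so this order largely follows from the CPM and is no separate support for it. The unthinned shares kept the order for LIF, IL11 and SOCS3 and not for the other members.

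**Figure D3:**
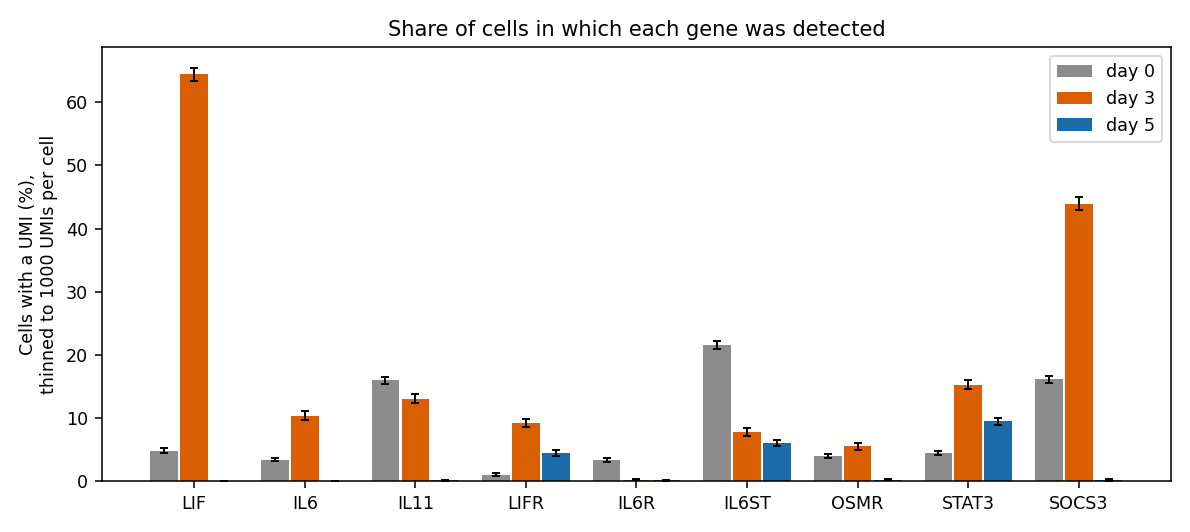
Percent of cells with at least 1 UMI of each member after thinning every cell to 1000 UMIs, by day, with exact binomial 95% intervals that cover counting error only. LIF (64.4%) and SOCS3 (44.0%) have their highest share at day 3, and at day 5 STAT3, IL6ST and LIFR are the members above 4%.

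The day 5 library was deposited with its low barcodes, which give levels of the members in barcodes not taken as cells. Whether those of 500 to 1000 UMIs held free RNA or small cells was not tested. In 50562 day 5 barcodes of 500 to 1000 UMIs, LIF was at 0.317 CPM, IL6 at 0.0264 (1 UMI), IL11 at 6.41 and SOCS3 at 2.61, each at or above its level in the cells. LIFR was at 52.8 CPM and IL6ST at 129 CPM in these barcodes, also above the cells, while STAT3 was at 43.6, IL6R at 1.43 and OSMR at 1.06, below them. In the 69569 barcodes of 10 to 100 UMIs, LIFR was at 43.5 CPM (30.7 to 60.02), IL6ST at 51.8 (37.6 to 69.5) and STAT3 at 35.3 (23.8 to 50.4), with the cells' levels of LIFR and IL6ST inside these intervals. With the profile of the barcodes of 500 to 1000 UMIs subtracted, the log2 ratios to day 3 were -1.03 for LIFR and -0.69 for IL6ST. The part of free RNA in the day 5 levels was not tested.

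Cells of each library were grouped by their other genes, with the members left out of the variable genes, into 7, 4 and 12 clusters at days 0, 3 and 5. At day 3 the members other than IL6R were within 1.68-fold between the 4 clusters, though the lowest and the highest cluster had intervals apart for all of these but OSMR. LIF ranged from 1018 CPM (983 to 1054) in cluster 2, led by RORB and GNAO1, to 1450 CPM (1393 to 1508) in cluster 3, in which all 8 cycling markers were high. SOCS3 ranged from 514 to 621 CPM, STAT3 from 140 to 179, IL6 from 77.8 to 131, IL11 from 123 to 165, LIFR from 73.7 to 106, IL6ST from 70.4 to 90.03, OSMR from 48.1 to 62.2 and IL6R from 0.587 to 3.75. At a clustering resolution of 1, the range was 2.14-fold for IL6 and 2.02-fold for LIFR. Every day 3 cluster thus stood above every day 0 cluster in LIF, whose highest was 167 CPM. CLCF1, another ligand of the family, ranged further, at 68.3 CPM in cluster 2 against 20.1 to 24.6 in the other 3.

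At day 0 the 2 clusters with little MALAT1, both led by RAB13, were low in all 9 members. LIF was at 5.94 and 11.99 CPM in them against 68.8 to 167 in the other 5 clusters, IL6ST at 48.1 and 59.6 against 249 to 568, and SOCS3 at 19.2 and 55.1 against 193 to 313. Cluster 6, with 251 cells and MALAT1 at 13.7% of UMIs, had the highest LIF, IL6 (84.1 CPM), LIFR (28.4), IL6R (106), IL6ST (568), OSMR (97.7) and STAT3 (98.8). SOCS3 was highest at 313 CPM in cluster 2, led by JUN and CXCL2, and IL11 at 312 CPM in the cycling cluster 4. The rank of cluster 6 depended on the clustering. At a resolution of 1, LIF (207 CPM), IL6 (122) and OSMR (83.5) were highest in 1 cluster, and LIFR, IL6R, IL6ST and STAT3 in another. With only cells of at least 1000 UMIs clustered, the highest levels were 112 CPM for LIF, 58.3 for IL6 and 17.2 for LIFR. With the low-MALAT1 clusters left out, an alternative chosen after seeing the data, 9459 day 0 cells remained, the log2 ratio of day 3 to day 0 was 3.81 for LIF, 2.61 for LIFR, -4.23 for IL6R and -2.20 for IL6ST, and the called members were the same in both comparisons with day 0. The share of day 0 cells with a LIF UMI was then 7.32%, with SOCS3 23.2% and with IL6ST 30.8%.

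Among the 12 day 5 clusters, LIFR, IL6ST and STAT3 were present in each. LIFR ranged from 25.7 CPM (19.97 to 32.5) in cluster 4, with 9 neuron markers high and led by VWDE and SLC17A6, to 113 CPM (83.1 to 150) in cluster 8, with 126 cells, 5 neural progenitor markers and NFE2L3 and IL12RB2 as leading genes. IL6ST ranged from 28.5 CPM (15.9 to 47.0) in cluster 6 to 142 CPM (108 to 183) in cluster 8, and STAT3 from 54.2 CPM (44.2 to 65.8) in cluster 9, led by LINC01374 and including NEUROD4, to 166 CPM (129 to 210) in cluster 8. Cluster 8 thus had the highest level of all 3. SOCS3 was also highest there, at 12.03 CPM (3.91 to 28.1, 5 UMIs), against 2.33 CPM or less in the other 11 clusters. For IL6ST the interval of cluster 8 was apart from that of every other cluster. It overlapped that of cluster 1 for LIFR (70.2 to 92.2), of cluster 3 for STAT3 (129 to 142) and of cluster 0 for SOCS3 (1.20 to 4.07). The MALAT1 share of cluster 8, 1.42%, was the lowest among the day 5 clusters. In the clusters with at least 3 neuron markers high (2, 4, 5, 9 and 11), LIFR was at 25.7 to 61.9 CPM and IL6ST at 40.0 to 49.4, while in cluster 1, with 6 fibroblast markers high, LIFR was at 80.6 CPM and IL11 at 6.06. No cluster had an IL6 UMI.

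**Figure D4:**
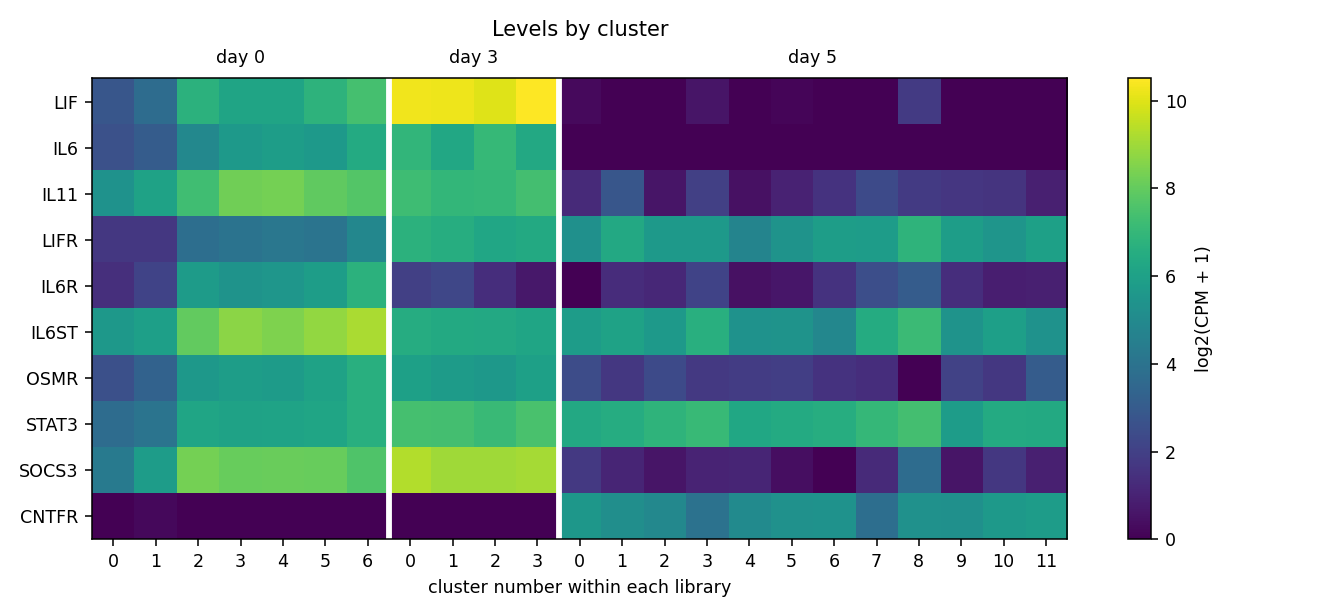
Levels as log2(CPM + 1) of the 9 members and CNTFR (rows) in the 7, 4 and 12 clusters of the day 0, day 3 and day 5 libraries (columns, numbered within each library). LIF is high across all 4 day 3 clusters (1018 to 1450 CPM), the first 2 day 0 clusters are low in every member, and CNTFR appears across the day 5 clusters (13.0 to 55.5 CPM).

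Whether the members were found in the same cells was compared in thinned cells by setting the share with a second gene among cells with and without the first. At day 3 the intervals overlapped in 28 of 28 pairs: IL6 was in 10.4% of LIF-positive and 10.3% of LIF-negative cells, and SOCS3 in 44.8% (43.4 to 46.1) and 42.5% (40.7 to 44.3). At day 0 they were apart in 23 of 36 pairs, all with the second gene more frequent, as for IL6 in 7.30% of LIF-positive against 3.25% of LIF-negative cells. Without the low-MALAT1 clusters 3 of 36 pairs were apart. At day 5, 3 pairs had enough cells and 0 were apart.

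Across the 23 clusters, the Pearson correlation of log2(CPM + 1) describes which levels ran alike, with clusters of 1 library sharing that library and its preparation. LIF ran with SOCS3 (r = 0.97) and IL6 (0.97), IL6R with IL6ST (0.94) and LIFR with STAT3 (0.90), while LIF and its receptor LIFR did not (0.01). The genes most like LIF were ACVRL1, TRIM38, EREG, FAM43A and HGF (r of 0.99 each), and those most like IL6 were AREG, TBX3, TNFRSF11B, DPP4 and FENDRR. EREG, an EGF family ligand, was at 60.6, 434 and 0.452 CPM at days 0, 3 and 5, and AREG, another, at 499, 1434 and 0. HGF, the ligand of the MET receptor, was at 90.9, 1026 and 0.118 CPM.
For SOCS3 the nearest were NR4A2, CEBPB, CCDC71L, AREG and EMILIN1, for IL11 B2M, SNAI2, COL6A3, FOXF1 and LOX, and for OSMR ADM, MYC, TBX5, BCL3 and TBX3. IL6R and IL6ST shared ITGB1, CALU and CHPF among their nearest genes. LIFR ran most closely with HINFP, PRMT9, INTS6 and ZDBF2, and STAT3 with DNAJC25, ODF2L, TMEM120B and RNF149.

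The rest of the pathway was read from 90 further genes in 7 lists. Of these, 59 reached 10 CPM in the day 3 and day 0 libraries, with 27 higher and 9 lower at day 3, a median log2 ratio of 0.86 against 0.49 over all genes compared, beside 37.6% higher and 19.1% lower of all genes. With TMM 9 were higher and 25 lower, as were 1519 and 4863 of all 10462 genes compared. Of 60 at day 5 against day 3, 8 were higher and 40 lower, beside 36.5% and 28.7%, with a median of -2.39 against 0.16. Of 56 at day 5 against day 0, 12 were higher and 33 lower, beside 49.1% and 26.0%, with a median of -2.07 against 0.93. The medians of the members were 1.19, -5.22 and -4.73 in the 3 comparisons.

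Among the other ligands, 2 of 8 reached 10 CPM. CLCF1, a ligand of the CNTF receptor, was at 18.6 CPM at day 0, 29.02 at day 3 and 6.85 at day 5, lower at day 5 than at either earlier day. CTF1, OSM, CNTF, IL27 and EBI3 were all under 10 CPM in each library.

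Of the other 8 receptor chains, 3 reached 10 CPM. CNTFR, the chain that binds CNTF alongside LIFR and IL6ST, had 3 UMIs at day 0 and 0 at day 3, and was at 32.3 CPM (30.8 to 33.9, 1645 UMIs) at day 5. It was in 3.41% of thinned day 5 cells and in every day 5 cluster, from 13.0 CPM (9.82 to 16.8) in cluster 7 to 55.5 CPM (42.5 to 71.3) in cluster 11, which had 10 neuron markers high, and at 82.8 CPM in the barcodes of 500 to 1000 UMIs. LEPR, the leptin receptor, was at 7.45, 9.83 and 24.8 CPM, higher at day 5. LEPR has 209538 bases of intron, and over all genes with 200000 bases or more the median day 5 to day 3 log2 ratio was 3.61. IL11RA, the chain that binds IL11, was at 5.74, 20.8 and 3.89 CPM, higher at day 3 by library totals and lower at day 5 than at day 3.

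Of the 8 kinases and other STATs, 3 were higher and 0 lower at day 3 against day 0 among 7 compared (37.6% and 19.1% over all genes), and 2 higher and 4 lower at day 5 against day 3 (36.5% and 28.7%). JAK1, a kinase bound to IL6ST, was at 185, 153 and 79.9 CPM. STAT2, of the interferon response, was at 19.2, 153 and 26.2 CPM, and STAT6, of interleukin 4 signalling, at 26.3, 88.2 and 3.55. STAT5B was called higher at each step by library totals, at 14.5, 37.2 and 99.5 CPM. Relative to the median gene, its day 3 to day 0 log2 ratio was 0.55. It has 71093 bases of intron, a length class whose median day 5 to day 3 log2 ratio was 0.87.

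Of the 14 brakes, SOCS3 aside, 4 were higher and 1 lower at day 3 among 11 compared (37.6% and 19.1% over all genes), and 2 higher and 5 lower at day 5 against day 3 among 12 (36.5% and 28.7%). SOCS5 was at 103, 55.1 and 3.93 CPM and SOCS2 at 48.9, 90.4 and 6.11, both lower at day 5 than at day 3. SOCS6 at 21.5, 39.9 and 42.9 CPM and SOCS7 at 8.15, 36.3 and 45.6 were not called between day 3 and day 5. PIAS1, an inhibitor of activated STAT factors, was at 26.4, 83.5 and 273 CPM, called higher at each step by library totals. Relative to the median gene, its day 3 to day 0 log2 ratio was 0.85. It has 133649 bases of intron, a length class whose median day 5 to day 3 log2 ratio was 1.65. The phosphatases PTPN11 (SHP2, which docks on IL6ST) and PTPN1 were at 122, 58.6 and 72.1 CPM and at 75.1, 87.9 and 74.8 CPM.

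Among 28 genes known to respond to STAT3, 18 were compared at day 3 against day 0, with 6 higher and 5 lower, beside 37.6% and 19.1% over all genes. At day 5 against day 3, 0 of 18 were higher and 15 lower, beside 36.5% and 28.7%, with a median log2 ratio of -4.11. Many of the lower genes, among them CEBPB, TIMP1 and VEGFA, have under 5000 bases of intron, and others such as CCND1 have more. Over all genes under 5000 bases the median log2 ratio was -1.75. CEBPB, a transcription factor of the acute phase response, was at 309, 1245 and 1.79 CPM, and VEGFA, the vascular growth factor, at 141, 532 and 4.01. TIMP1, a metalloproteinase inhibitor, was at 986, 1108 and 64.3 CPM. CCND1 (cyclin D1) was at 1877, 176 and 34.1 CPM and TNFRSF12A, the TWEAK receptor, at 484, 12.1 and 7.15, both lower at day 3 than at day 0. Many of these genes answer to other factors too, and the fibroblast markers, which summed to 4959, 8106 and 312 CPM, moved with them, a part that was not tested.

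Of 20 genes upstream of LIF, IL6 or IL11, 9 were higher and 3 lower at day 3 against day 0 among 16 compared (37.6% and 19.1% over all genes), and 1 higher and 12 lower at day 5 against day 3 among 14 (36.5% and 28.7%). PTGS2 (COX2), the inducible enzyme of prostaglandin synthesis, was at 13.6, 546 and 0 CPM, and IL1R1, the interleukin 1 receptor, at 58.3, 394 and 0.452. NFKBIA and NFKBIZ, inhibitor and cofactor of NF-kB, were at 333, 316 and 3.63 CPM and at 46.3, 168 and 3.10. Some of the genes lower at day 5, such as PTGS2 and NFKBIA, also have under 5000 bases of intron, while IL1R1 has 108248. CREB1, the factor that binds the cyclic AMP response element, was at 25.9, 82.3 and 199 CPM, and was the one gene of this list higher at day 5 than at day 3. It has 64120 bases of intron, a length class whose median day 5 to day 3 log2 ratio was 0.87.

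The 4 genes of receptor shedding, by which IL6R is cut from the cell surface, gave 3 higher and 0 lower at day 3 (37.6% and 19.1% over all genes), and 0 higher and 2 lower at day 5 against day 3 (36.5% and 28.7%). The protease ADAM17 was at 19.4, 67.3 and 99.8 CPM and ADAM10 at 78.4, 143 and 153, while their inhibitor TIMP3 was at 217, 464 and 63.4 and RHBDF2, a partner of ADAM17, at 1.09, 10.8 and 0.727. Neither protease was called between day 3 and day 5.

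**Figure D5:**
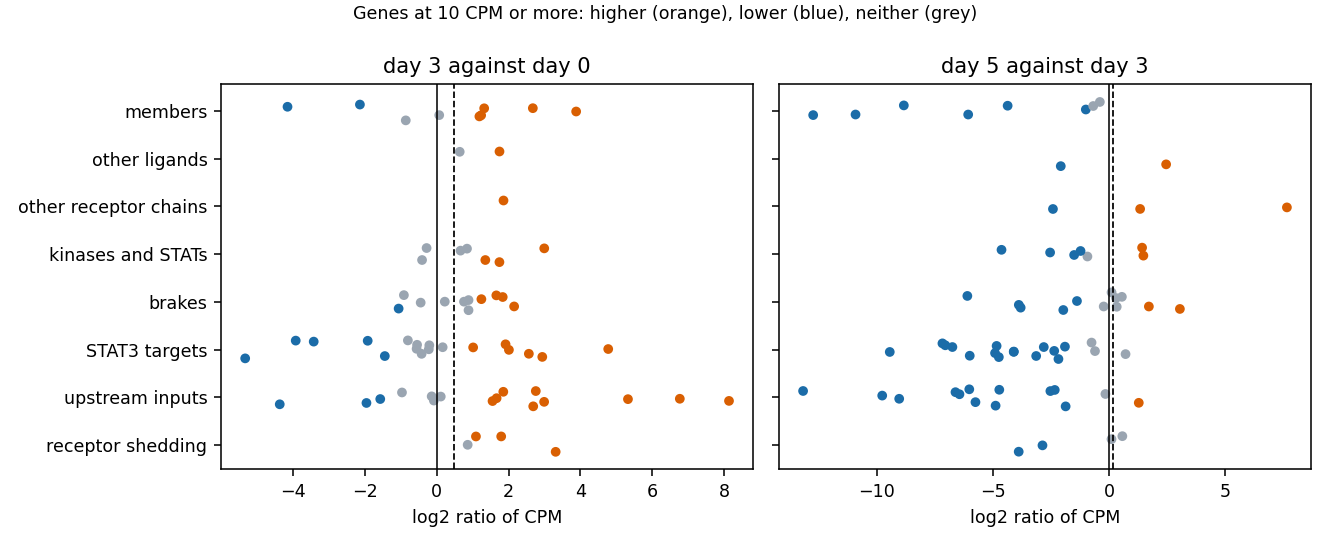
Log2 ratio of CPM for the members and the 7 further lists (rows) at day 3 against day 0 and at day 5 against day 3, for genes at 10 CPM or more in either library, called higher (orange), lower (blue) or neither (grey), with the median of all genes compared as a dashed line (0.49 and 0.16). At day 5 against day 3 the STAT3 targets (15 of 18) and upstream inputs (12 of 14) lie mostly to the left.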

How the data were processed

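UMI counts per gene and barcode were deposited by the authors without normalization, for 33538 genes at days 0 and 3 and 36601 at day 5. Cell Ranger 4.0.0 and the build hg38 (GRCh38) are named in the submitters' processing notes, while the counting of introns and the use of strand are not given in the sources used here. Day 5 was deposited with all 2037119 barcodes, and those of at least 2154.3 UMIs were taken as cells. Cells needed 500 UMIs, 300 genes and at most 20% mitochondrial UMIs. No doublet caller was run. UMIs were summed per library and divided by the total over 32732 genes shared by Ensembl ID (CPM), with exact Poisson 95% intervals, and ratios used a floor of 3 UMIs. Coordinates, overlaps and intron lengths come from GENCODE 29. Clusters were made per library (scanpy 1.11.5, igraph 0.11.9, 2000 variable genes, 30 components, 15 neighbours, Leiden resolution 0.5), and a marker was counted as high in a cluster at 2-fold above the other cells of its library. Alternatives were the median of ratios, TMM from edgeR 4.0.16 (R 4.3.3), other cell filters, thinning and other thresholds. The call rule was run on simulated counts of 32732 genes for each comparison, which hold counting noise only. It found 50 of 50 genes at 3-fold and 0 of 50 at 1.5-fold. These genes had many UMIs, so this outcome follows from the rule and does not bear on differences between libraries. The members and lists were chosen with earlier results of these data known. All members were named, with up to 5 genes of each further list by largest CPM, at 10 CPM or more, and the 5 genes most like each member across clusters among those reaching 50 CPM in a cluster, without mitochondrial and ribosomal protein genes and unnamed clones. A few genes that these rules name were left out of the text.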

Additional observations from a re-analysis of the deposited data

How the results depend on the processing

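Of 176 alternative counts of called members or pathway genes, 163 were within 1.5 times the value reported and 13 were not. With TMM, 2 members (LIF and LIFR) and 9 pathway genes were higher and 4 members (IL11, IL6R, IL6ST and OSMR) and 25 pathway genes lower at day 3 against day 0, and 0 members were higher at day 5 against day 0. With the median of ratios, 2 members and 16 pathway genes were higher and 21 pathway genes lower at day 3 against day 0. The mean of per-cell CPM, thinning to 1000 UMIs and a ratio of at least 1.5 each gave 2 members (LIFR and STAT3) higher at day 5 against day 0. A ratio of at least 3 left 2 members higher at day 3 against day 0 and 4 pathway genes higher at day 5 against day 3. The SOCS3 log2 ratio of day 3 to day 0 was -0.0079 with TMM, the 1 change of sign in a called ratio among 288 alternative log2 ratios, and 107 others moved beyond their counting interval. Of ratios not called, OSMR at day 3 against day 0 changed sign in 4 of 11 alternatives and STAT3 at day 5 against day 0 in 2 of 11 (-0.50 with TMM). Beside the scaling itself, the cause was not tested. Over all alternatives the day 3 to day 0 log2 ratio ran from 2.68 to 4.52 for LIF, 1.48 to 3.25 for LIFR, -5.35 to -3.32 for IL6R and -3.33 to -1.44 for IL6ST. The share of higher genes among all calls at day 5 against day 0 was 65.4% with library totals, 43.1% with TMM and 52.5% with the median of ratios. No paired analysis was possible because each group is 1 library, so no replicate could be left out either. Depth limits the day 5 values of LIF and IL6 and all shares at day 3, where the median cell held 1324 UMIs.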

Other observations

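Further receptor chains that are not members were also read in the day 5 barcodes of 500 to 1000 UMIs. IL11RA was at 10.2 CPM there against 3.89 CPM in the cells, and LEPR at 8.82 CPM against 24.8. IL12RB2, a chain of the interleukin 12 receptor related to IL6ST, had 10 UMIs at day 0 and 13 at day 3, and was at 6.09 CPM in day 5 cells (5.43 to 6.80, 310 UMIs) and 1.72 CPM in these barcodes. It was a leading gene of day 5 cluster 8, the cluster with the highest LIFR, IL6ST and STAT3. IL12RB2 was chosen for mention after its values were seen.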
